A study of Homo sapiens with 2 samples.

Results

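The 10 genes described here encode positive acute-phase proteins, plasma proteins whose blood level climbs in inflammation: the serum amyloids SAA1, SAA2 and SAA4, C-reactive protein (CRP), haptoglobin (HP), haemopexin (HPX), the orosomucoids ORM1 and ORM2, and the protease inhibitors SERPINA1 and SERPINA3. They were chosen by name, kept where a probe carried exactly 1 gene symbol, and averaged per gene. By that rule 9 of the 10 had a value, out of 18417 genes measured in all, and SAA4 had none. The study measured HepG2, an established human hepatoma (liver cancer) line grown in MEM medium, on 2 Affymetrix arrays: 1 of control cells and 1 of cells given 100 mg/L amorphous silica nanoparticles (SiO2-NP) in that medium for 24 h. Neither label names a separate culture, a genetic change or any agent that both groups share. No other cell type is named in the cultures, so cytokines that macrophages supply in a liver are outside this model.

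Since each group has a single array, replicate error is unknown. No test was run, and each value below describes these arrays, not the conditions. A difference is the log2 intensity of the SiO2-NP array minus that of the control array. No gene's level is ranked against another's, because probes differ in brightness for the same amount of RNA. Genes are called brighter where their mean of both arrays is at least 7.26, which is the median over genes, and dimmer otherwise. This coarse sorting by probe brightness, called the level filter, is not a detection call or a measure of RNA amount, and a dim probe cannot be told from an absent transcript here.

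In the liver, the acute-phase response is driven mainly by IL-6, which binds its receptor IL6R and the shared subunit IL6ST (gp130), activates the kinase JAK1 and then the transcription factor STAT3. IL-1 and TNF act alongside through NF-kB, and C/EBP factors bind many of the same promoters. Hepatocytes answer by secreting defence, carrier and protease inhibitor proteins, while SOCS3, itself a STAT3 target, shuts the signal down.

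The labelled cell type was checked against its markers by the level filter. All 9 measured hepatocyte markers were among the brighter genes, and their mean log2 intensity was 11.97 on the control array and 11.94 on the SiO2-NP array. ALB, which encodes albumin, had 13.50 and 13.41. Under the filter were 8 of 10 macrophage, 7 of 8 leukocyte, 9 of 10 endothelial and 8 of 10 fibroblast markers. The brighter macrophage markers were LYZ (13.23 and 13.27) and CD68 (9.61 and 9.49). The brighter fibroblast markers were ACTA2 (9.66 and 9.61) and COL1A1 (7.43 and 7.67). CSF3R (7.49 and 7.45) was the brighter leukocyte marker. ENG (7.16 and 7.42) was the endothelial one, only through its SiO2-NP value. PTPRC, the pan-leukocyte marker CD45, had 3.65 on the control array and 3.71 on the SiO2-NP array.

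Among the acute-phase genes, the differences were uneven: CRP, HPX, SERPINA3 and SAA1 were at least 1.2-fold higher after SiO2-NP (0.26 on the log2 scale), while HP, ORM1, ORM2, SERPINA1 and SAA2 lay within 1.2-fold of the control. That is 4 of 9 higher, where 8.26% of all genes were at least 1.2-fold higher. None of the 9 was 1.2-fold lower, against 6.47% of all genes. At 1.5-fold the count was 1, CRP, against 0.331% of all genes. The median difference over the 9 genes was 0.07 and the mean 0.17, beside a median of 0.01 over all genes. Of the 9, 5 were above the control and 4 below it, beside 52.3% of all genes above.

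**Figure D1:**
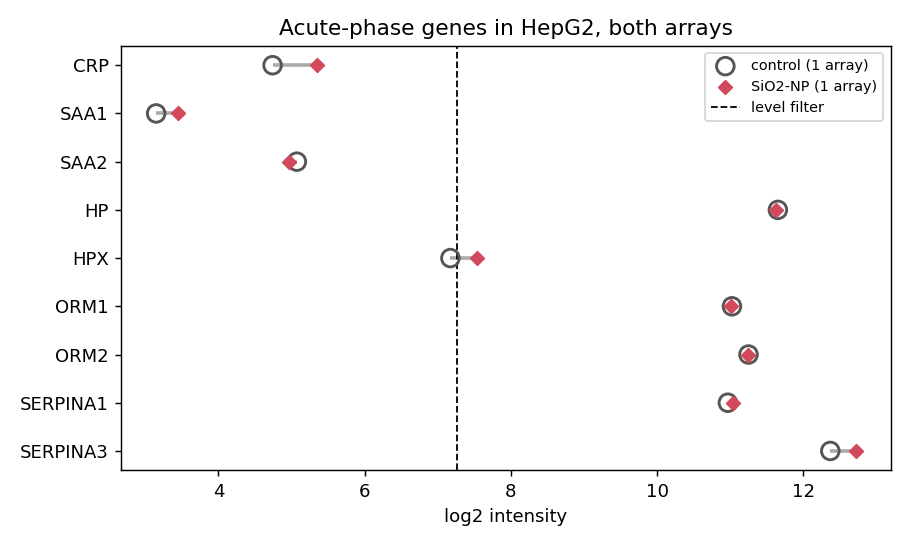
Log2 intensity (x axis) of each acute-phase gene with a value, in the control array (open circles) and the SiO2-NP array (diamonds), with the level filter of 7.26 as a dashed line. CRP, SAA1, HPX and SERPINA3 show a visible gap to the right, the circles and diamonds of HP, ORM1, ORM2 and SERPINA1 nearly coincide, and levels of different genes are not comparable.

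The brightness of a gene bears on how such a difference reads. Over the 9208 dimmer genes the median difference was 0.07, 64.3% were above the control and 13.5% were at least 1.2-fold higher. Over the 9209 brighter genes the median was -0.03, 40.2% were above the control and 2.99% were at least 1.2-fold higher. The central 95% of differences ran from -0.36 to 0.44 in the dimmer genes and from -0.37 to 0.28 in the brighter ones. CRP, SAA1 and SAA2 were dim, and the other 6 genes were bright.

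The promoters of HPX, SERPINA3 and CRP, 3 of the 4 genes past 1.2-fold, and of ORM1, a bright gene with nearly equal values, are shown so that the sequence upstream of each can be read beside its values. They cover 250 bases before and 50 bases from the RefSeq gene start on GRCh38.p14, 5′ to 3′ on the gene's strand, and entries were found for 6 of the 10 genes (SAA4, CRP, HPX, ORM1, SERPINA1 and SERPINA3). Capitals mark matches to 4 searched motifs. The STAT palindrome, TTCNNNGAA, and the C/EBP motif, TTNNGNAAT, were searched on both strands. The IL-6 response core, spelled CTGGGAA, was likewise searched on both. The TATA box, spelled TATAAA, was searched on the gene's strand. The positions are HPX at chr11:6440938-6441237 (minus strand), SERPINA3 at chr14:94612141-94612440 (plus strand), CRP at chr1:159714540-159714839 (minus strand) and ORM1 at chr9:114322848-114323147 (plus strand).
HPX: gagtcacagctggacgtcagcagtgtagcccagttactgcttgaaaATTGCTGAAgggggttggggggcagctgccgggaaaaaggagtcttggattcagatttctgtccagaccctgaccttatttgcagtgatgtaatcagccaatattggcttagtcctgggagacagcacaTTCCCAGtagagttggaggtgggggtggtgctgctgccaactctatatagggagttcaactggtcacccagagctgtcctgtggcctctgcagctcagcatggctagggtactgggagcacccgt
SERPINA3: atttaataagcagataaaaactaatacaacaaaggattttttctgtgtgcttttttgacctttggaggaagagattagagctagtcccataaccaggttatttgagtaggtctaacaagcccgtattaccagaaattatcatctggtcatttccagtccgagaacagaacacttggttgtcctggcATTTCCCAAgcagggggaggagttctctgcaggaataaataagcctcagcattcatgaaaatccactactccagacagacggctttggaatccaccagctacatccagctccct
CRP: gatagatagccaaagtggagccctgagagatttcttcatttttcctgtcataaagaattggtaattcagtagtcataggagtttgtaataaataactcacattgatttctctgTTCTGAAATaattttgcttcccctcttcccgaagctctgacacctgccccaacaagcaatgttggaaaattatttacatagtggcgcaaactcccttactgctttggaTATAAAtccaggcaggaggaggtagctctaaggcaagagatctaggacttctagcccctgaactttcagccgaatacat
ORM1: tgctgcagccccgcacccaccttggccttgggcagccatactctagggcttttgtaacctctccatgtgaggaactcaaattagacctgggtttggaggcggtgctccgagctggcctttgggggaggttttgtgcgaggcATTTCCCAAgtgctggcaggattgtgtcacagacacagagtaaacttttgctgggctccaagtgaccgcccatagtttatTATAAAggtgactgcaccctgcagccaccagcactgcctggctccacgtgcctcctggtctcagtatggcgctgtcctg

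The C/EBP motif was found in 5 of the 6 promoters, beside 11% of all 35116 promoters of that length. The 5 were SAA4, CRP, HPX, ORM1 and SERPINA3. SERPINA3 and ORM1 held the same 9 letters, ATTTCCCAA, a C/EBP match on the opposite strand, at positions -64 and -109 from the gene start. The IL-6 response core was found in HPX alone of the 6, at position -75 as TTCCCAG on the opposite strand, beside 10.8% of all promoters. CRP and ORM1 had a TATA box, both at position -29, beside 7.33% of all promoters. The STAT palindrome, found in 7.66% of all promoters, had no match in these 6 windows. The search covered only that spacing of TTC and GAA, so other spacings would not be marked. A match describes letters and is not a bound site. Each gene was searched at a single start, and whether HepG2 cells use that start is not known from these data.

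CRP, a pentraxin that binds phosphocholine on damaged cells and microbes and activates complement, had the largest difference of the group. Its log2 intensity was 4.74 on the control array and 5.35 on the SiO2-NP array. The SiO2-NP array was thus the higher one, by 0.61 or 1.53-fold, the rank 48 from the top of 18417 genes. Among the dimmer genes, 0.402% had a difference as high or higher. The probe was far below the level filter on both arrays.

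CRP's relatives had smaller differences. The pentraxin list, CRP included, had 5 measured genes, all above the control, with a median of 0.13. Of the 5, 4 were dim, a class in which 64.3% of genes were above the control and 13.5% at least 1.2-fold higher. NPTX1, a neuronal pentraxin, had 6.63 and 6.95, 1.25-fold higher and also dim. PTX3, a long pentraxin made by many cell types, differed by 0.13, NPTXR by 0.07 and NPTX2 by 0.00.

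The serum amyloids SAA1 and SAA2, apolipoproteins of high-density lipoprotein that are among the most inducible acute-phase proteins, were both dim and went opposite ways. SAA1 had 3.15 on the control array and 3.44 on the SiO2-NP array, 1.23-fold higher. Among the dimmer genes, 10.4% had a difference as high or higher. SAA2 was read by 2 probes, with 5.12 and 4.99 on the first and 5.03 and 4.94 on the second. Both SAA2 probes were lower in the SiO2-NP array, by 0.13 and 0.09, and their mean differed by -0.11. SAA1 and SAA2 are close paralogues, and a further probe annotated to both had 3.37 and 3.21. With that probe added to its own, the SAA1 difference was 0.066 in place of 0.30 and no longer reached 1.2-fold. The pseudogene SAA3P was dim as well, at 3.86 and 4.02.

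SAA4, the constitutive serum amyloid of resting plasma, had no probe with 1 symbol. A probe annotated to SAA4 and to the readthrough gene SAA2-SAA4 was bright, with 11.29 on both arrays and a difference of -0.00. It cannot be assigned to either gene, and it stayed out of the counts.

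The haem and haemoglobin scavengers differed from each other. HPX, which binds free haem in plasma, had 7.17 on the control array and 7.53 on the SiO2-NP array, 1.28-fold higher. Over all genes, 3.56% had a difference as high or higher. HPX lay close to the filter: its control value was under 7.26, and it counts as brighter only through its SiO2-NP value. Its difference lay inside the central 95% of the dimmer genes and outside that of the brighter ones, so its place depends on the class it is read in. HP, which captures free haemoglobin, had 11.65 and 11.63, a difference of -0.02 that was 0.03 after quantile normalization. Its paralogue HPR, whose probe may share sequence with HP, had 9.78 and 9.67.

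The orosomucoids, lipocalin-fold glycoproteins that carry drugs and lipids, had nearly equal values on both arrays. ORM1 had 11.03 on the control array and 11.01 on the SiO2-NP array. ORM2 had 11.25 on both arrays. The differences were -0.01 and -0.00, and both had a positive sign after subtraction of a running median by level (0.02 each) and after quantile normalization (0.03 and 0.05). ORM1 and ORM2 are near-identical copies, so their probes may read both transcripts.

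The serpins also split. SERPINA3, or antichymotrypsin, an inhibitor of cathepsin G, had 12.37 on the control array and 12.72 on the SiO2-NP array. The SiO2-NP array was higher by 0.35, or 1.27-fold, and 1.26% of the brighter genes had a difference as high or higher. SERPINA1, or antitrypsin, the main plasma inhibitor of neutrophil elastase, had 10.97 and 11.04, a difference of 0.07 that 22.7% of the brighter genes reached. Both serpins and HPX kept their sign under every scaling run.

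**Figure D2:**
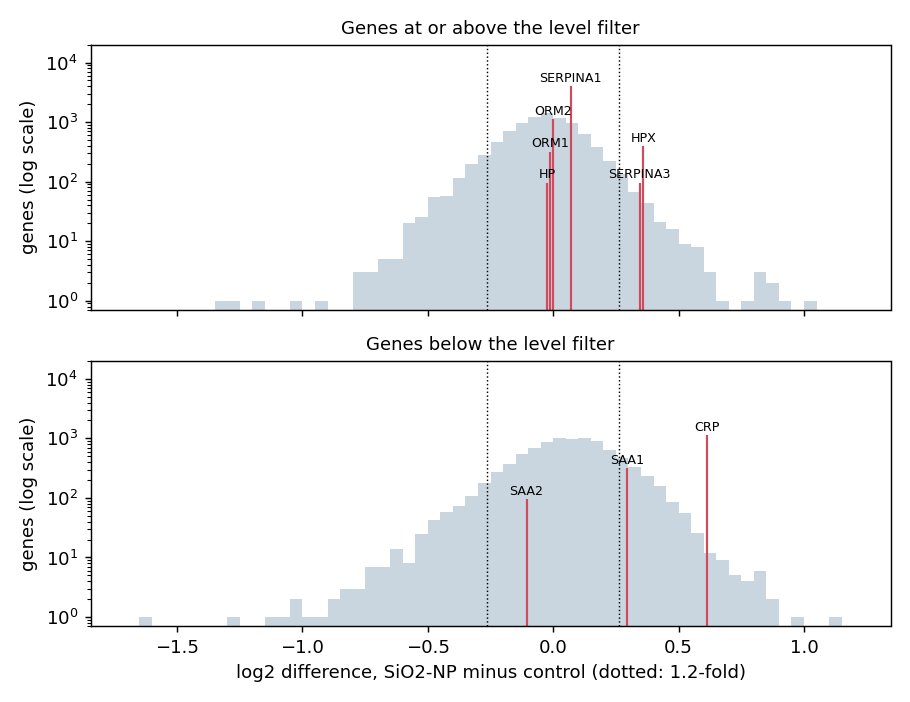
Histograms of the log2 difference (x axis, SiO2-NP minus control) over all genes, for brighter and dimmer genes, on a log count axis, with the acute-phase genes marked by lines of arbitrary height and 1.2-fold by dotted lines. SERPINA3 (0.35) and HPX (0.36) lie past the upper 1.2-fold line in the upper panel, where HPX is placed only through its SiO2-NP value. CRP (0.61) lies further out among the dimmer genes, where SAA1 (0.30) is just past the line.

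The clade A serpins, SERPINA1 and SERPINA3 included, hold hormone carriers as well as inhibitors. Of 10 measured genes, 7 were above the control, with a median of 0.07. Above the control were 52.3% of all genes and 40.2% of the brighter ones, and 8 of the 10 serpins were brighter. SERPINA4, or kallistatin, had 9.16 and 9.43, a difference of 0.26 at the edge of 1.2-fold. After each array was centred on its median it was 0.25 and no longer reached it. SERPINA5, the protein C inhibitor, differed by 0.21. SERPINA6, which carries cortisol and is a negative acute-phase protein, differed by -0.12.

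The fibrinogen chains, which form the clot protein and are classical IL-6 targets, were below the control in 3 of 3 genes, with a median of -0.08. All 3 were bright. Of the 9209 brighter genes, 5503 were below the control and 7.53% were at least 1.2-fold lower. FGG, the gamma chain, had 12.23 on the control array and 11.91 on the SiO2-NP array, 1.24-fold lower. FGA had 12.27 and 12.19, and FGB had 11.62 and 11.58. FGG therefore lay on the other side of the control from SERPINA3 and HPX.

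Of 19 other positive acute-phase genes with a value, 15 were above the control, with a median of 0.09, and 1 was at least 1.2-fold higher and 1 lower. Over all genes, 52.3% were above the control, 8.26% at least 1.2-fold higher and 6.47% lower, so the counts past 1.2-fold were near those shares. Of the 15, 7 were dim. ITIH4, an inter-alpha-trypsin inhibitor heavy chain, was the higher one (6.80 and 7.10, 1.23-fold, dim). HAMP, the iron hormone hepcidin and a known STAT3 target, was the lower one, with 9.87 and 9.47, 1.32-fold lower. The abundant complement protein C3 differed by 0.05, ceruloplasmin (CP) by 0.09 and complement factor B (CFB) by 0.13.

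Negative acute-phase genes, whose products fall in inflammation, were below the control in 10 of 15, with a median of -0.03, and 1 was at least 1.2-fold lower. That count is near the 6.47% of all genes, and the median is close to that of the brighter genes as a class. Above the control were 52.3% of all genes and 40.2% of the brighter ones, and 11 of the 15 were brighter. SERPINC1, or antithrombin, had 11.02 and 10.70, 1.25-fold lower. ALB differed by -0.10 and AHSG, or fetuin-A, by -0.11, while TTR, the thyroxine carrier transthyretin, differed by 0.20 and transferrin (TF) by 0.14. The list thus held genes on both sides of the control.

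**Figure D3:**
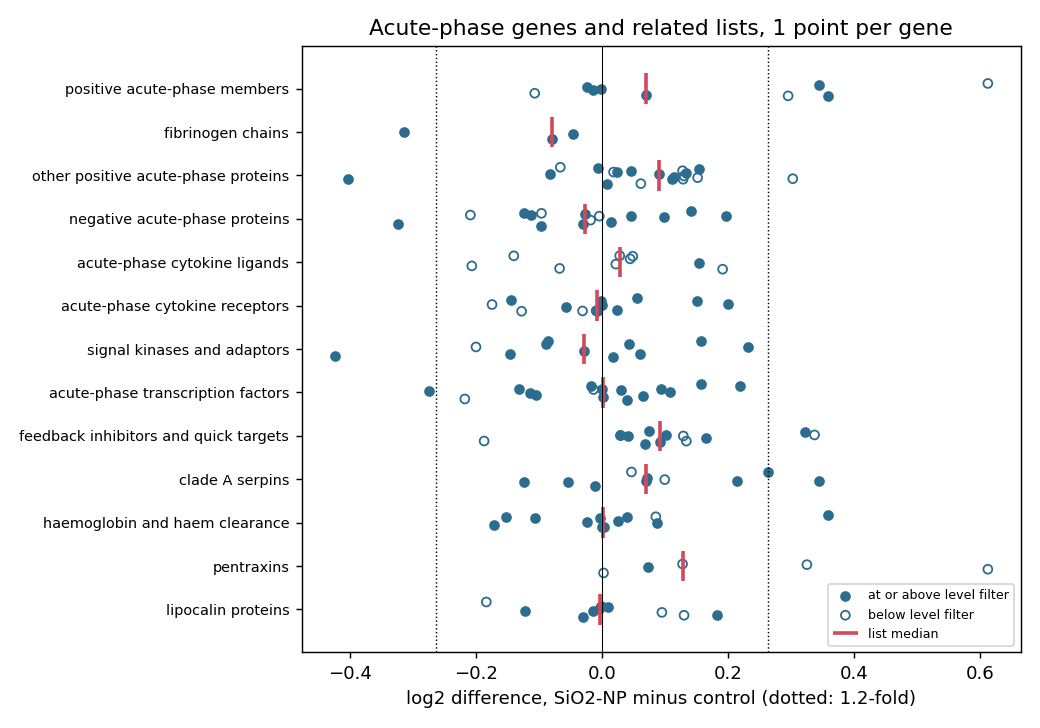
Log2 difference (x axis, SiO2-NP minus control) of each measured gene in the acute-phase group and in the related lists, filled for brighter and open for dimmer genes, with the list median as a red bar and 1.2-fold as dotted lines. Medians run from -0.08 for the fibrinogen chains to 0.13 for the pentraxins, beside 0.07 for the acute-phase genes.

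The genes of the cytokines and receptors that switch the response on lay within 1.2-fold of the control. None of the 9 measured cytokine ligand genes passed 1.2-fold in either direction, and 8 of them were dim. TNF, the largest, differed by -0.21, and IL6 had 4.61 on the control array and 4.64 on the SiO2-NP array. Of 13 receptor genes, 5 were above and 8 below the control, none past 1.2-fold. Over all genes, 52.3% were above the control, 8.26% at least 1.2-fold higher and 6.47% lower. IL6R had 7.98 and 8.0, and IL6ST had 11.05 on both arrays. OSMR, the oncostatin M receptor, had the largest difference, 0.20. The medians, 0.03 for ligands and -0.01 for receptors, changed sign under a running median by level, to -0.05 and 0.03.

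Of the signal carriers and transcription factors, 1 in each list was past 1.2-fold, both lower, beside 6.47% of all genes at least 1.2-fold lower. JAK1 had 10.10 and 10.25, and STAT3 had 10.94 and 11.16, a difference of 0.22 or 1.16-fold. CHUK, a kinase of the NF-kB pathway, had 9.59 and 9.16, 1.34-fold lower, the only one of 11 kinases and adaptors past 1.2-fold. Its difference of -0.42 was larger in size than those of HPX and SERPINA3. NR3C1, the glucocorticoid receptor, had 8.69 and 8.41, 1.21-fold lower, the only one of 16 transcription factors past it. CEBPD, the inducible C/EBP factor, differed by 0.16, CEBPB by -0.02, RELA by 0.11 and NFKB1 by 0.00. The list medians were -0.03 for the kinases, which was 0.01 under the running median, and 0.00 for the factors, which was -0.01 after centring on the array median.

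Feedback inhibitors and quick targets of the same pathways were above the control in 12 of 13 genes, with a median of 0.09 that stayed between 0.07 and 0.10 under the alternatives. Above the control were 52.3% of all genes, 40.2% of the brighter and 64.3% of the dimmer ones, and 8 of the 13 genes were brighter. Of these, PIAS3 (7.23 and 7.32) and ZFP36 had control values under 7.26 and count as brighter only through their SiO2-NP values. SOCS2 had 5.84 and 6.18, 1.26-fold higher and dim. ZFP36, which destabilises cytokine mRNAs, had 7.11 and 7.44, 1.25-fold higher. SOCS3 was dim, with 6.30 and 6.44, a difference of 0.13. IRF1 was the gene below the control, by -0.19.

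The markers of other cell types, most of them dim, are given beside CRP and SAA1. Of the dimmer genes as a class, 64.3% were above the control and 13.5% at least 1.2-fold higher. Of the 8 leukocyte markers, 7 were above the control, 3 of them at least 1.2-fold, and the list's mean log2 intensity was 5.53 on the control array and 5.69 on the SiO2-NP array. Of the 10 macrophage markers, 9 were above it, 2 of them at least 1.2-fold, with means of 6.58 and 6.71. The 8 dim macrophage markers were all above the control, and the 2 brighter ones had a median of -0.04. Endothelial and fibroblast markers were above it in 7 of 10 genes each, with means of 5.81 and 5.86, and of 6.19 and 6.27. Their part in the values of CRP and SAA1 was not tested.

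The split of calls over all genes depended on the scaling. Of all genes past 1.2-fold, 1521 were higher and 1191 lower as deposited, but 1039 and 1350 after subtraction of the running median. Among the brighter genes, 275 were higher and 693 lower as deposited, and 392 and 474 after quantile normalization, so 4.26% were then at least 1.2-fold higher. CRP, HPX and SERPINA3 were past 1.2-fold under all 3 scalings. Each was read by 1 probe, so the 2 probe rules could not change its value, and centring moved every gene by the same amount. SAA1 was past 1.2-fold under 4 of the 5 choices of scaling or probe rule. It also has 1 probe of its own, so 1 of those 4, keeping the probe with the highest mean, could not change its value. With the shared probe used, the SAA1 difference was 0.066 and no longer reached 1.2-fold.

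**Figure D4:**
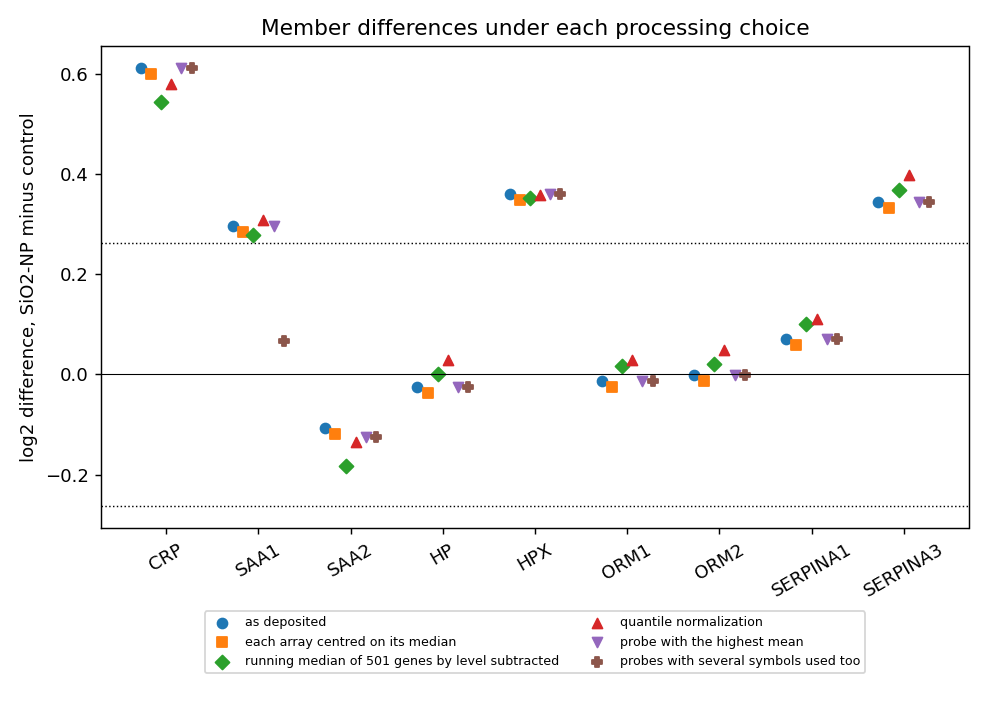
Log2 difference (y axis, SiO2-NP minus control) of each acute-phase gene as deposited and under 5 other choices of scaling or probe rule, with 1.2-fold as dotted lines. CRP, HPX and SERPINA3 stay above the upper line, but have 1 probe each, so only the scalings could move them. SAA1 drops to 0.066 when the probe shared with SAA2 is used, and HP, ORM1 and ORM2 lie within 0.05 of 0 on either side.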

How the data were processed

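The deposited table holds 1 log2 intensity per probe and array (33297 probes, values from 2.08 to 14.4). The log2 scale was read from the values. Per the submitters' processing notes, the authors used RMA and MAS5; which of these made the table, their versions and the build are not given in the sources consulted. If RMA made the values, its equalising of the arrays would hide a shift shared by most transcripts. About 300 ng of RNA per sample was amplified and labelled with biotin, per the labels' protocols. Arrays have no read depth, and their number limits the precision.

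Of the probes, 19460 had 1 symbol in the platform annotation and were averaged per gene, 1754 had several and 12083 had none. Symbols of 9 of 9 measured acute-phase genes matched RefSeq (GRCh38.p14) by gene identifier. Gene names that found no single-symbol probe were not analysed here. Differences were taken as SiO2-NP minus control, without a pseudocount and without a test. Genes were counted past 1.2-fold or 1.5-fold. The text names all 10 acute-phase genes, related genes past 1.2-fold (or the largest of a list) and a set of pathway genes, with some further values for context chosen after they were seen. The genes, lists and thresholds were chosen with earlier results of these data known. Alternatives were 3 scalings, 2 probe rules, 2 level filters and 2 other fold thresholds. Probe averaging and the 1.2-fold cut were tested on simulated data with known folds and no added noise. The level filter, list counts and promoter search were not tested in this way. The software was Biopython 1.88 (promoters), pandas 2.3.3, NumPy 2.4.6 and, for plots, matplotlib 3.10.9, under Python 3.11.15.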

Additional observations from a re-analysis of the deposited data

How the results depend on the processing

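Most values moved by less than 0.1 on the log2 scale under the alternatives. For genes read by 1 probe, keeping the probe with the highest mean could not move the value. A move under 0.1 could still change the sign of a list median, as for the kinases (-0.03 as deposited, 0.01 under the running median). The SAA1 difference was 0.066 in place of 0.30 when the probe shared with SAA2 was used. The group's mean difference was 0.17, against the median of 0.07, and the median without CRP was 0.03. The genes at least 1.2-fold higher numbered 4 as reported, beside 8.26% of all genes. With the level filter at the median gene mean they numbered 2, SERPINA3 and HPX, beside 2.99% of the brighter genes. HPX passes that filter only through its SiO2-NP value. At the 75th percentile the count was 1, where fewer genes are left and the share over all genes was not computed. At 1.5-fold it was 1, beside 0.331% of all genes. The count of genes at least 1.2-fold lower was 0 in every alternative run, including 1.1-fold, beside 6.47% of all genes as deposited. The level filters and the 1.5-fold threshold could not have raised that count, since they can only lower it. The cytokine ligand median was 0.15 with the level filter, which left 1 gene, and at the 75th percentile the ligand and pentraxin lists had none left. Alternative pseudocounts were not run, since the table is on a log2 scale. No paired analysis was possible because there was 1 array a group, so none could be left out either.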

Other observations

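The remaining relatives of the acute-phase genes were close to the control. Of 10 lipocalin-fold genes including ORM1 and ORM2, 4 were above and 6 below it, none past 1.2-fold, with a median of -0.00 that was 0.04 after quantile normalization. Over all genes, 52.3% were above the control. PTGDS, a prostaglandin D synthase, had the largest difference, -0.18, and C8G, a chain of complement component 8, differed by 0.18. Of 12 genes of haemoglobin and haem clearance, HPX was the only one past 1.2-fold. Over all genes, 8.26% were at least 1.2-fold higher and 6.47% lower. HMOX1, which degrades the haem that HPX delivers, had 8.96 on the control array and 8.80 on the SiO2-NP array, and LRP1, the receptor that takes up haem bound to HPX, had 10.47 on both. CD163, the macrophage receptor for haptoglobin bound to haemoglobin, was dim at 4.72 and 4.81.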
